A study of Homo sapiens with 6 samples.

Results

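The potassium channel subunits described here are the genes whose symbol is KCN followed by letters and then digits, taken from probe sets (groups of array probes for 1 transcript region) that name exactly 1 gene. Of several probe sets for a gene, only that with the highest 6-array mean was used, which gave 85 of the 18417 genes measured. Their RNA was measured on Affymetrix arrays in A375, an established human melanoma cell line, to compare 3 arrays of cells kept in vehicle (0.1% DMSO) with 3 arrays of cells given 10 µM of the melanoma drug vemurafenib, which inhibits a kinase of the ERK pathway. Both groups held the same line, seeded at 1000000 cells per dish and grown for 24 h before 24 h of treatment. The series' text gives 3 cell stocks, each prepared on its own day, as the source of the replicates, so the spread within a group includes stock and day. All cells came from 1 line in culture at 1 dose and 1 time, and the label of the drug arrays does not state a DMSO content. Values are log2 levels, and a change is the vemurafenib mean less the vehicle mean of these, where 1 is a 2-fold difference. A gene was called higher or lower where limma's adjusted p (Benjamini-Hochberg over all 18417 genes) was under 0.05.

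Potassium channels let potassium ions leave or enter a cell along their gradient and so set the membrane potential, which in turn governs calcium entry, cell volume and firing. Pore subunits open by voltage, by intracellular calcium or sodium, or near the resting potential, while silent and auxiliary subunits form no working pore alone and alter the speed, voltage range or surface delivery of the pores they join. In melanoma cells, potassium channels have been studied for their part in proliferation, volume regulation and migration, and in pigment cells of the inner ear an inward rectifier helps build the potassium-rich fluid around the hair cells.

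With vemurafenib, 13 of the 85 genes were higher, 16 were lower and 56 did not pass the threshold. The share called was 34.1%, against 45.5% of all genes. For rises alone, 13 of 85 compares with 23.2% of all genes, and for falls alone 16 of 85 compares with 22.2%. These shares are descriptions, and no test of the family as a whole was made. The largest rises were those of KCNJ10, an inward rectifier of glia, and KCNS3, a silent partner of voltage-gated channels, and the largest falls those of KCNQ5, a slow voltage-gated channel, KCNN4, a calcium-activated channel, and KCNJ2, the classical strong inward rectifier. These 5 were the members that changed by at least 2-fold (5 of 85, against 5.69% of all genes), and 14 changed by at least 0.5, 8 up and 6 down (14 of 85, against 19.7%). For 36 members (42.4%, against 55.4% of all genes) the 3 vemurafenib arrays lay wholly above or below the 3 vehicle arrays. The median change was -0.08 over the members and -0.05 over all genes.

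**Figure D1:**
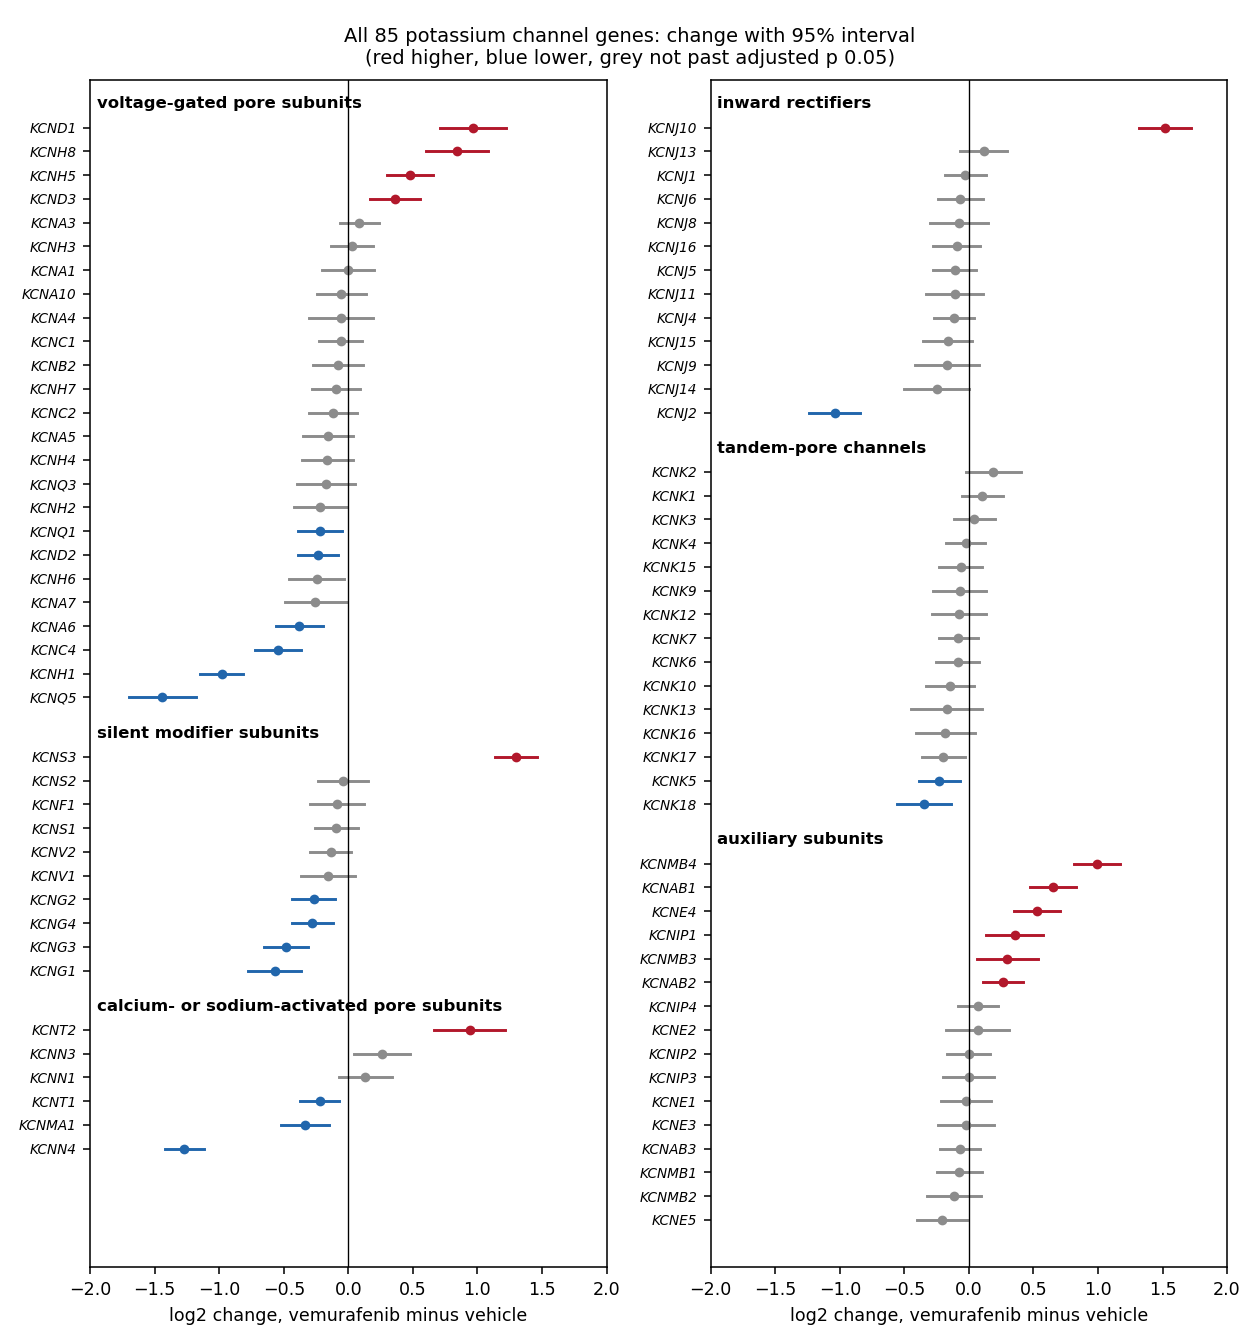
Log2 change (vemurafenib minus vehicle, x axis) of each of the 85 potassium channel genes with its 95% interval, grouped by role. The changes run from -1.44 for KCNQ5 to 1.52 for KCNJ10, and most intervals of uncalled members cross 0.

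How near a level lay to background was judged by 341 olfactory receptor genes, taken as hardly transcribed outside the nose, and the 90th percentile of their levels, 6.75, was used as a bound. Averaged over all 6 arrays, 54 members lay above this bound and 31 at or below it. Only 7 members lay above the median level of all genes, 8.37. A level above the bound does not by itself show that a gene is transcribed. Among the 54, 21 were called (38.9%, against 52.9% of the genes above it), and among the 31, 8 were called (25.8%, against 20.6%). Both group means were at or below the bound for 25 members, the vehicle mean alone for 6 and the vemurafenib mean alone for 5, and a group mean in that range is not shown to be above background. A fold that involves such a mean compares array values and is limited by background. In a bulk RNA sample, fewer cells with a transcript and less of it per cell cannot be told apart.

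The 5 members that changed by at least 2-fold went in opposite directions, so the stretch before each of their start sites is shown for comparison. Each is the 250 bases upstream of the RefSeq start (GRCh38.p14; for KCNS3 the most upstream of 2 starts), 5′ to 3′ on the gene's strand, with capitals marking matches to a searched motif on either strand.
KCNQ5, chr6:72621814-72622063, plus strand: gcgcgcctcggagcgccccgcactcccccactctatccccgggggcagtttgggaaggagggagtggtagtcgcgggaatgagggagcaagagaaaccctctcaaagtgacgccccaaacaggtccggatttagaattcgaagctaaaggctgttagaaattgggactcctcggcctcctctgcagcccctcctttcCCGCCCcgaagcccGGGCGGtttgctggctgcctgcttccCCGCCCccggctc
KCNN4, chr19:43780974-43781223, minus strand: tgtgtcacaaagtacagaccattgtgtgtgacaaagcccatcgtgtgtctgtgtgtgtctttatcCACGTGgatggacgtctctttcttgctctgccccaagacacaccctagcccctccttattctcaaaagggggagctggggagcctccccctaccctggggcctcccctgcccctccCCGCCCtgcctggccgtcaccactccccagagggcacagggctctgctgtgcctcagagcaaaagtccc
KCNJ2, chr17:70169282-70169531, plus strand: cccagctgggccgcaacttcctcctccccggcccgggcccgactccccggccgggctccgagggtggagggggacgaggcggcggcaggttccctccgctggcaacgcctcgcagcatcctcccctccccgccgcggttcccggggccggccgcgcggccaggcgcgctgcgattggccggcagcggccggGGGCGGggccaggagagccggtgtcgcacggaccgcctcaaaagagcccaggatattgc
KCNS3, chr2:17877597-17877846, plus strand: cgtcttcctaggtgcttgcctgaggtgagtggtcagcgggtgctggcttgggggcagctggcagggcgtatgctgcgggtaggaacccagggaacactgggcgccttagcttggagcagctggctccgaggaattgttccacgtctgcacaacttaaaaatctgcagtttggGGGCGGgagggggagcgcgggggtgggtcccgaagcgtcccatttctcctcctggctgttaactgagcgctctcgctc
KCNJ10, chr1:160070161-160070410, minus strand: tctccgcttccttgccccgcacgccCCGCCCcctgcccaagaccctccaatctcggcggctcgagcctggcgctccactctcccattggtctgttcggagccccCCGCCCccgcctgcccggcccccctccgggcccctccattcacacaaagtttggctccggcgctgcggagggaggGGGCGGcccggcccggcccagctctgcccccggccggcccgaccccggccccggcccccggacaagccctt

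The motifs searched, in both directions, were the AP-1 element TGANTCA, the ETS core CCGGAA, the E-box CACGTG, the M-box TCATGTG, the GC box GGGCGG and the FOXO element GTAAACA, and no printed match overlaps another. The GC box, a short motif of many promoters, matched 3 times each before KCNQ5 and KCNJ10 and 1 time each before KCNN4, KCNJ2 and KCNS3. The same motif is held by 42.2% of 27305 RefSeq windows of that length. KCNN4 alone of the 5 held another match, 1 E-box, a motif in 6.46% of windows. The AP-1, ETS, M-box and FOXO letters, found in 6.57%, 14.8%, 2.6% and 3.01% of windows, do not occur in these 5. The 3 genes that fell and the 2 that rose therefore share the GC box letters, and these matches say nothing of whether a factor binds. RefSeq windows were matched for 67 of the 85 members, under 80%, so any motif or base composition check over the whole family is void.

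The voltage-gated pore subunits (KCNA, KCNB, KCNC, KCND, KCNH and KCNQ) open when the membrane depolarizes. Of 25 measured, 4 were higher and 6 lower (40% called, against 45.5% of all genes), with a median of -0.12. KCNQ5, which carries a slow current that steadies the resting potential, read 9.04, 8.87 and 9.12 in vehicle replicates 1 to 3 and 7.83, 7.54 and 7.32 in vemurafenib replicates 1 to 3. Every drug array lay more than 1 log2 unit below every vehicle array. The means were 9.01 ± 0.13 and 7.57 ± 0.25 (SD, n = 3), a change of -1.44 (SE 0.12), 2.72-fold lower, with an adjusted p of 1.85e-06. The other KCNQ genes had smaller differences: KCNQ1, the slow channel of heart and epithelia, was called lower at -0.22 (adjusted p 0.0354), and KCNQ3, which pairs with other KCNQ pores in neurons, did not pass at -0.17 (adjusted p 0.189). The KCNQ1 call was lost without vehicle replicate 1 (adjusted p 0.0858), 2 (0.0837) or 3 (0.0554) and without vemurafenib replicate 2 (0.131) or 3 (0.0568). With all 6 arrays it was also lost after renewed quantile normalization (0.0545) and with a trend and robust eBayes (0.0603).

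KCNH1, the ether-à-go-go channel that has been studied in many tumours, gave 7.17, 7.10 and 7.12 with vehicle and 6.18, 6.03 and 6.24 with vemurafenib. Its groups lay apart, and the drug mean of 6.15 ± 0.11 fell below the background bound from 7.13 ± 0.04 (SD, n = 3). The change was -0.98 (SE 0.077), 1.98-fold lower between array values, with an adjusted p of 1.28e-06. Its relative KCNH8, of the ELK branch, went the other way: 6.42, 6.61 and 6.55 with vehicle against 7.40, 7.58 and 7.12 with vemurafenib. That rise, with no overlap, came from a vehicle mean below the bound (6.52 ± 0.10) to 7.37 ± 0.24 (SD, n = 3), a change of 0.84 (SE 0.11, adjusted p 7.17e-05). KCNH5, the second ether-à-go-go pore, was also higher from a dim vehicle level, by 0.48 (adjusted p 4.92e-04), while the other 5 KCNH genes did not pass. KCNH2, whose product carries a repolarizing current of the heart, was among those 5 at -0.22 (95% interval -0.42 to -0.02). It was called lower in 3 of 17 alternatives, and KCNH6 (-0.25, adjusted p 0.0587) was called lower in 5 of 17. Sister pores of 1 branch, KCNH1 and KCNH5, thus changed in opposite directions, and each had 1 group mean at background.

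KCND1, a pore of the fast inactivating A-type current, read 7.56, 7.21 and 7.25 with vehicle and 8.43, 8.07 and 8.41 with vemurafenib. Vehicle replicate 1 was the highest of its group, yet all drug arrays stood above it. KCND1 rose by 0.97 (SE 0.12), 1.95-fold, from 7.34 ± 0.19 to 8.31 ± 0.20 (SD, n = 3; adjusted p 3.85e-05). All 3 KCND genes passed the threshold, as did 45.5% of all genes. KCND3 was higher by 0.36 and KCND2 lower at -0.23, but both were dim in both groups. Without vehicle replicate 1 the KCND2 call was lost (adjusted p 0.0895). KCND1 is therefore the only KCND gene whose group means both lay above the background bound.

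KCNC4, a fast-activating pore of the Shaw type, gave 8.29, 8.26 and 8.09 with vehicle and 7.71, 7.58 and 7.71 with vemurafenib. The groups lay apart, and the change was -0.54 (SE 0.08), 1.46-fold, from 8.21 ± 0.11 to 7.67 ± 0.08 (SD, n = 3; adjusted p 1.79e-04). The other Shaw-type genes, KCNC1 (-0.06, adjusted p 0.549) and KCNC2 (-0.12, adjusted p 0.267), did not pass. Among the 7 KCNA genes, the Shaker-type pores, 1 was called (14.3%, against 45.5% of all genes). This was KCNA6, lower at -0.38 (adjusted p 0.00275), with both group means at or below the bound. The remaining KCNA genes ranged from -0.26 for KCNA7 to 0.09 for KCNA3, the pore best known from T cells, which was dim in both groups. KCNB2, the 1 delayed rectifier of the KCNB type measured, was at -0.08 (adjusted p 0.474) and dim.

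**Figure D2:**
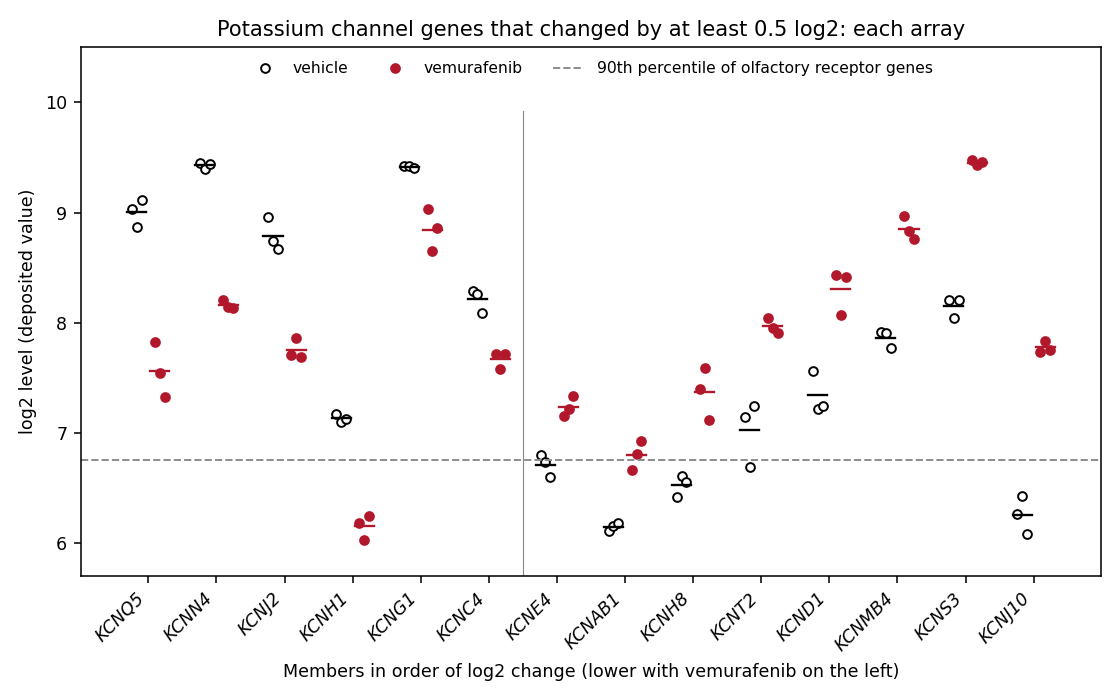
Deposited log2 level (y axis) in each of the 3 vehicle (open) and 3 vemurafenib (filled) arrays for the 14 members called with a change of at least 0.5, with a bar at each group mean and a dashed line at the olfactory receptor bound of 6.75. In all 14 the arrays of the groups do not overlap, and 5 have 1 group mean below the line (KCNH1 with vemurafenib, and KCNE4, KCNAB1, KCNH8 and KCNJ10 with vehicle).

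Silent modifier subunits (KCNF, KCNG, KCNS and KCNV) make no channel alone and tune the KCNB-type pores they join. Of 10, 1 was higher and 4 lower (50% called, against 45.5% of all genes), with a median of -0.15. KCNS3 read 8.21, 8.05 and 8.20 with vehicle and 9.48, 9.43 and 9.46 with vemurafenib, with the 3 drug arrays within 0.05 of each other. It rose from 8.15 ± 0.09 to 9.45 ± 0.02 (SD, n = 3), by 1.30 (SE 0.073), 2.46-fold, with an adjusted p of 1.09e-07. Its relatives KCNS1 (-0.09, adjusted p 0.332) and KCNS2 (-0.04, adjusted p 0.719) did not pass. The KCNG genes moved the other way, and all 4 were called lower, as were 22.2% of all genes. KCNG1 gave 9.43, 9.42 and 9.40 with vehicle and 9.03, 8.65 and 8.86 with vemurafenib. Its vehicle arrays lay within 0.05 of each other, the drug arrays spread more widely, and the groups did not overlap. KCNG1 fell by 0.57 on the log2 scale (SE 0.093), 1.49-fold, from 9.42 ± 0.01 to 8.85 ± 0.19 (SD, n = 3; adjusted p 3.86e-04). A second KCNG1 probe set, not kept by the rule, fell as well (-0.75, adjusted p 3.63e-05 in a test of every probe set). KCNG3, KCNG4 and KCNG2 were lower at -0.48, -0.28 and -0.27 (adjusted p 3.26e-04, 0.00884 and 0.0122), KCNG3 to a drug mean below the bound. The rest did not pass: KCNF1 at -0.09, KCNV1 at -0.16 and KCNV2 at -0.14 (adjusted p 0.475, 0.2 and 0.137).

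Pores opened by intracellular calcium or sodium (KCNMA, KCNN and KCNT) held 6 members, of which 1 was higher and 3 lower, with a median of -0.04. All 6 had a mean level above the bound. The share called was 66.7%, against 45.5% of all genes and 52.9% of the genes above the bound. KCNN4, the intermediate-conductance calcium-activated channel of red cells, T cells and many tumours, read 9.45, 9.40 and 9.44 with vehicle and 8.20, 8.15 and 8.13 with vemurafenib. Replicates agreed within 0.1 in each group, and the gap between the groups was more than 10 times that. The means were 9.43 ± 0.03 and 8.16 ± 0.04 (SD, n = 3), a change of -1.27 (SE 0.068), 2.41-fold lower, with an adjusted p of 7.19e-08, the lowest of the 85 members. The small-conductance relatives did not pass: KCNN3 was at 0.26 (95% interval 0.04 to 0.47) with an adjusted p of 0.0503, and KCNN1 at 0.13 (95% interval -0.07 to 0.34) with 0.268. KCNN3 lay just short of the threshold and was called higher in 6 alternatives: without vemurafenib replicate 2 (0.37, adjusted p 0.00619), with array weights (0.0141), without the dimmest 50% (0.0277) or 25% of genes (0.0377), with a trend and robust eBayes (0.0438) and on the mean of probe sets (0.0499).

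KCNT2, a sodium-activated pore, gave 7.15, 6.69 and 7.24 with vehicle and 8.04, 7.95 and 7.90 with vemurafenib. Vehicle replicate 2 was the lowest array, about 0.5 below its group, and all drug arrays exceeded all vehicle arrays. KCNT2 rose by 0.94 (SE 0.12), 1.92-fold, from 7.03 ± 0.30 to 7.97 ± 0.07 (SD, n = 3; adjusted p 7.94e-05). Its paralog KCNT1 was called lower at -0.22 (adjusted p 0.0206), a call lost without vehicle replicate 1 (0.0532). KCNMA1, the large-conductance pore gated by calcium and voltage, fell from 8.06 ± 0.10 to 7.73 ± 0.11 (SD, n = 3), a change of -0.34 (adjusted p 0.00627).

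Inward rectifiers (KCNJ) pass potassium inward more readily than outward and hold the resting potential. Of 13 members 1 was higher and 1 lower, the 2 being among the 5 largest changes of the family, and the median was -0.11. The share called was 15.4%, against 45.5% of all genes. KCNJ10, the rectifier of glia and of pigment cells in the inner ear, read 6.26, 6.43 and 6.08 with vehicle and 7.74, 7.84 and 7.75 with vemurafenib. All vehicle arrays were below the background bound and all drug arrays about 1 unit above it. The change from 6.26 ± 0.17 to 7.77 ± 0.06 (SD, n = 3) was 1.52 (SE 0.091), 2.87-fold between array values, with an adjusted p of 1.67e-07. KCNJ2, the strong rectifier of heart and skeletal muscle, gave 8.96, 8.74 and 8.67 with vehicle and 7.70, 7.86 and 7.69 with vemurafenib. Its groups were separate and both lay above the bound. KCNJ2 fell from 8.79 ± 0.15 to 7.75 ± 0.09 (SD, n = 3), a change of -1.04 (SE 0.09), 2.06-fold, with an adjusted p of 2.86e-06. The other 11 ranged from -0.25 (KCNJ14) to 0.11 (KCNJ13) and did not pass. Of these, KCNJ11, the pore of the ATP-sensitive channel of pancreatic beta cells, was at -0.11 (95% interval -0.33 to 0.11), and KCNJ8, its vascular relative, was dim in both groups.

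Tandem-pore channels (KCNK), which carry 2 pore loops in each subunit and supply background leak current, were the group with the smallest changes. None of 15 was higher in limma (0 also at an unadjusted p under 0.05) and 2 were lower, with a median of -0.08 and a range from -0.34 to 0.19. The share called was 13.3%, against 45.5% of all genes. KCNK5, an acid-sensitive channel of epithelia, was lower at -0.23 (adjusted p 0.023); the call was lost without vehicle replicate 1 (0.107) or vemurafenib replicate 3 (0.0625). KCNK18, a channel of sensory neurons, was lower at -0.34 (adjusted p 0.0115) and dim in both groups. KCNK15, with one of the 5 highest deposited levels in the family, was at 8.94 ± 0.07 and 8.87 ± 0.09 (SD, n = 3), a difference of -0.07 (95% interval -0.23 to 0.10). KCNK2, a stretch-sensitive channel, was at 0.19 (95% interval -0.02 to 0.40) and was called higher without vehicle replicate 2 (0.29, adjusted p 0.0145) and with array weights (0.23, adjusted p 0.0228).

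Auxiliary subunits (KCNAB, KCNE, KCNIP and KCNMB) bind to pores and set their kinetics, voltage range or traffic. Of 16, 6 were higher and 0 lower in limma, and the median was 0.03. The share called was 37.5%, against 45.5% of all genes (23.2% higher and 22.2% lower). At an unadjusted p under 0.05, 1 gene, KCNE5, was lower, and it was called with array weights (-0.21, adjusted p 0.025), after centring over the genes kept (-0.27, adjusted p 0.032) and without vemurafenib replicate 3 (-0.27, adjusted p 0.0359). KCNMB4, the beta subunit that slows the large-conductance channel in neurons, read 7.91, 7.91 and 7.77 with vehicle and 8.97, 8.83 and 8.76 with vemurafenib. There was no overlap, and both groups lay above the bound. KCNMB4 rose by 0.99 (SE 0.081), 1.99-fold, from 7.86 ± 0.08 to 8.85 ± 0.11 (SD, n = 3; adjusted p 1.72e-06). KCNMB3 was called higher at 0.30 (adjusted p 0.0431), but its groups overlapped and its 4 probe sets disagreed: the others gave 0.30, 0.21 and -0.03 (adjusted p 0.0509, 0.148 and 0.81). On the mean of the 4 probe sets the change was 0.20 (adjusted p 0.125), which is not a call. The call was also lost after centring over the genes kept (0.106), without vehicle replicate 1 (0.0819) or 2 (0.151) and without vemurafenib replicate 1 (0.0798) or 2 (0.168). KCNMB1 (-0.07) and KCNMB2 (-0.11) did not pass and were dim.

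KCNAB1, a cytoplasmic beta subunit that speeds inactivation of Shaker-type pores, gave 6.11, 6.15 and 6.18 with vehicle and 6.67, 6.81 and 6.92 with vemurafenib. The groups were apart, with the vehicle arrays and 1 drug array under the bound. KCNAB1 rose by 0.65 (SE 0.08), 1.57-fold between array values, from 6.15 ± 0.04 to 6.80 ± 0.13 (SD, n = 3; adjusted p 4.65e-05). Its relative KCNAB2, well above background, rose by 0.26 from 9.04 ± 0.06 to 9.31 ± 0.02 (SD, n = 3; adjusted p 0.0085), and KCNAB3 did not pass (-0.07, adjusted p 0.444). KCNE4, a single-span subunit that inhibits KCNQ1 channels, read 6.80, 6.73 and 6.60 with vehicle and 7.15, 7.22 and 7.33 with vemurafenib. Without overlap, it went from a vehicle mean just under the bound (6.71 ± 0.10) to 7.23 ± 0.09 (SD, n = 3), a change of 0.53 (SE 0.081, adjusted p 2.58e-04). The other KCNE genes did not pass: KCNE5 at -0.21, KCNE3 at -0.02, KCNE1 at -0.02 and KCNE2 at 0.07 (adjusted p 0.0758, 0.867, 0.872 and 0.654).

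KCNIP1, a calcium-binding partner of the KCND pores, rose by 0.35 (adjusted p 0.0134) from a vehicle mean under the bound, a call lost without vehicle replicate 3 (0.0575) or vemurafenib replicate 2 (0.0563). KCNIP3, which binds KCND pores and also acts as a transcriptional repressor, had the highest deposited level of the family: 9.66 ± 0.17 and 9.65 ± 0.05 (SD, n = 3), a difference of -0.002 with a 95% interval of -0.20 to 0.20. KCNIP2 and KCNIP4 gave -0.0017 and 0.07 (adjusted p 0.988 and 0.441). Deposited levels of different probe sets also depend on their probes, so the order of genes by level is not an order of RNA amounts.

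The same values can be set out by the channels that these subunits can form. For the large-conductance channel, the pore KCNMA1 was lower (-0.34) while the beta subunit KCNMB4 was higher (0.99). The beta subunit KCNMB3 was also called higher (0.30), a call lost in 8 of 17 alternatives. KCNMB1 (-0.07) and KCNMB2 (-0.11) were dim and not called. Of the LRRC genes in the list of channel partners, LRRC55 was called lower (-0.32, adjusted p 0.00539), and LRRC26, LRRC38 and LRRC52 were not called. For A-type channels made of KCND pores, KCND1 (0.97) and KCND3 (0.36) and the partner KCNIP1 (0.35) were higher and KCND2 (-0.23) lower. KCND3 and KCND2 were dim in both groups, and the partners KCNIP2, KCNIP3 and KCNIP4 were not called. For Shaker-type channels, the beta subunits KCNAB1 (0.65) and KCNAB2 (0.26) rose and KCNAB3 (-0.07) was not called. Of the 7 KCNA pores only KCNA6 was called, lower. KCNA6 was dim in both groups, and KCNAB1 rose from a vehicle mean under the bound. For KCNQ channels, KCNQ5 and KCNQ1 were lower, KCNQ3 was not called, and KCNE4, which inhibits KCNQ1 channels, was higher. The KCNQ1 call was lost in 9 of 17 alternatives, and KCNE4 rose from a vehicle mean under the bound. No test across subunits was made, and protein or current was not measured.

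**Figure D3:**
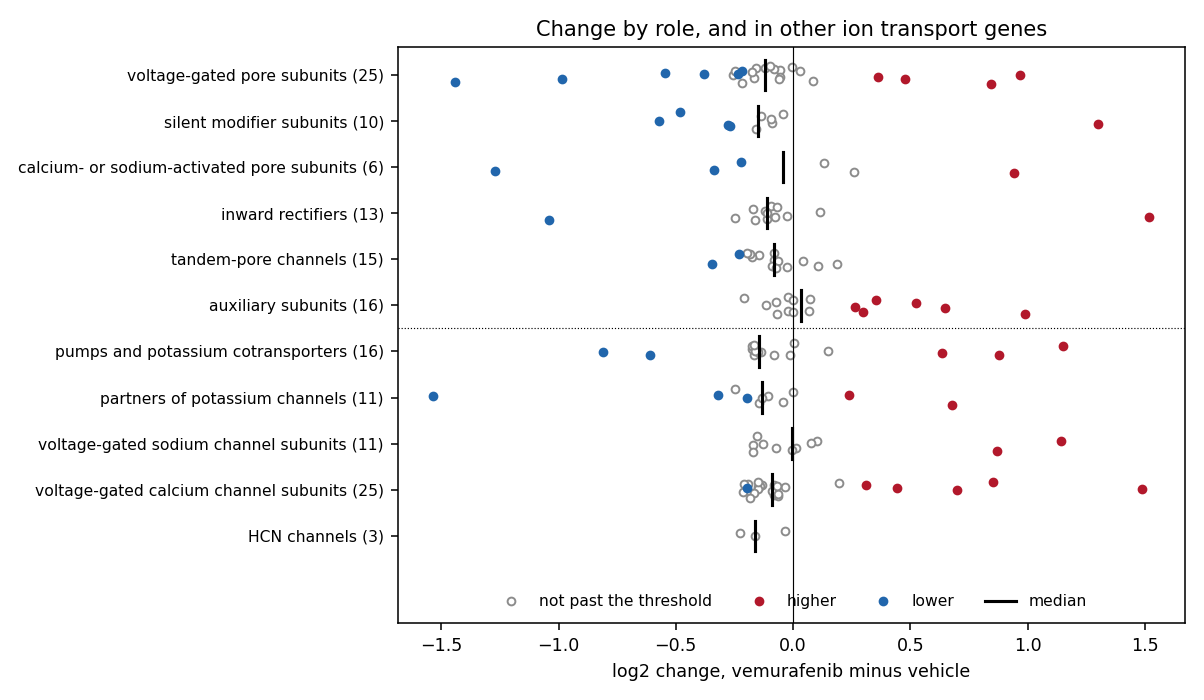
Log2 change (vemurafenib minus vehicle, x axis) of each gene by role of the potassium channel genes (above the dotted line) and in lists of other ion transport genes (below it), with number of genes in brackets and a bar at the median. Auxiliary subunits have 6 coloured points on the right and 0 on the left, and the silent modifiers 4 on the left and 1 on the right. Called were 37.5% of the auxiliary subunits and 50% of the silent modifiers, against 45.5% of all genes.

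The 85 genes lie on 21 chromosomes, and in the RefSeq order of GRCh38.p14 there were 9 pairs of members with no other protein-coding gene between them. In 0 of the 9 were both members called, in 5 only 1 was called and in 4 neither. Taken singly, 34.1% of the members were called. The same counts over all neighbouring genes were not made, so these describe the 9 pairs only. KCNJ10 rose beside KCNJ9, a rectifier subunit gated by G proteins (-0.17, adjusted p 0.244), and KCNJ2 fell beside KCNJ16, a subunit that joins KCNJ10 in kidney (-0.10, adjusted p 0.366). The other pairs with 1 call were KCNA6 with KCNA1, KCNIP1 with KCNMB1, and KCNK5 with KCNK17. KCNK17 missed the threshold narrowly (-0.20, adjusted p 0.05004) and was dim. It was called lower in 5 of 16 alternatives, among them centring on array medians (adjusted p 0.0495) and array weights (0.026).

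The 56 members that did not pass had changes between -0.26 and 0.26. Their 95% intervals all lay between -0.50 and 0.47, so at this precision a change of more than 0.5 in either direction lay outside each interval. Of these 56, 46 were below 0 and 10 above, and 23 had a mean at or below the background bound. Vehicle replicate 2 read high over the 56 by a mean of 0.13 relative to the mean of all 6 arrays of each gene, against -0.01 and -0.01 for the other vehicle arrays, and by 0.11 over 291 olfactory receptor genes that were not called. Without that array 36 of the 56 were below 0, and the median of all members moved from -0.08 to -0.05; its part in these small negative values was not tested further. With each array centred on the median of the genes kept, 12 members were higher and 23 lower, against 13 and 16, and rises made up 34.3% of the calls, against 44.8%. All genes moved the same way under that centring, from 4281 higher and 4090 lower to 3682 and 5630 (50.6% called). The shift in the split was therefore not confined to the members, and its source was not tested. Under each scaling tried, the 14 members with changes of at least 0.5 kept their direction and their call.

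**Figure D4:**
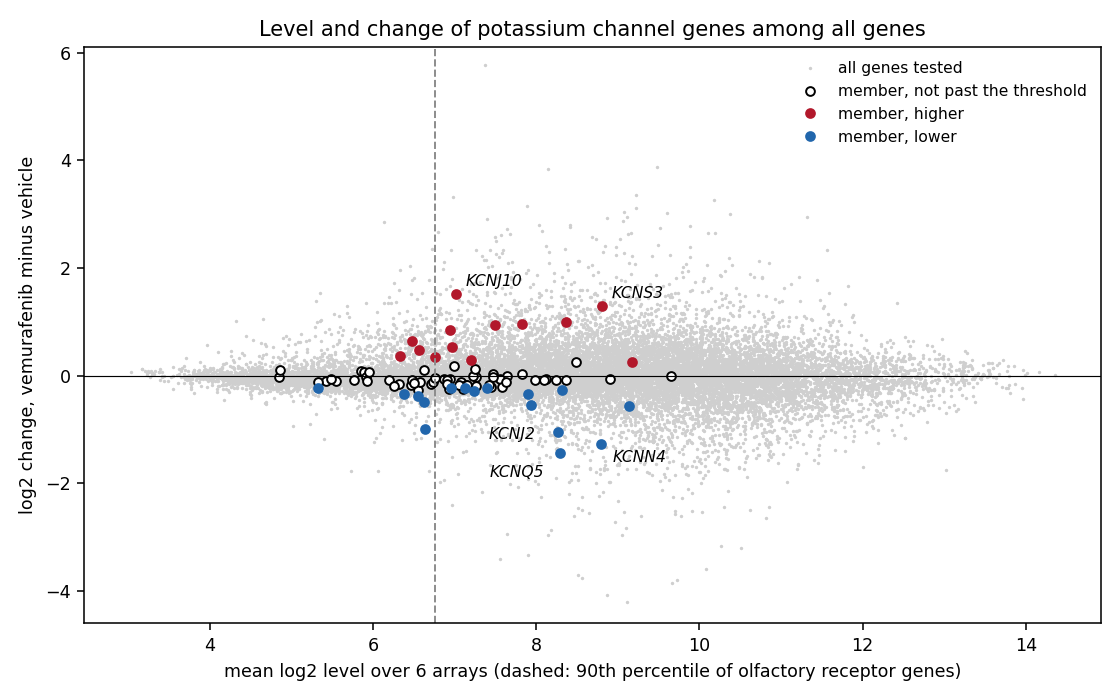
Log2 change (vemurafenib minus vehicle, y axis) against mean log2 level over 6 arrays (x axis) for all 18417 genes (grey) and the 85 potassium channel genes (circles, filled where called), with a dashed line at the bound of 6.75. Of the members, 54 lie to the right of the line, and the labelled points are the 5 that changed by at least 2-fold.

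Other genes of ion transport were read from lists of their own. Against 45.5% of all genes, 31.2% of the pump and cotransporter genes and 45.5% of the channel partners were called. The share was 18.2% for sodium channels, 24% for calcium channels and 0% for HCN channels. Among 16 sodium and potassium pump and cotransporter genes, 3 were higher and 2 lower (median -0.14). The beta subunits of the sodium pump divided: ATP1B2 (1.15) and ATP1B1 (0.88) rose and ATP1B3 (-0.81) fell, with adjusted p values of 1.92e-06, 8.53e-06 and 5.19e-06. Of 11 partners of potassium channels, 2 were higher and 3 lower (median -0.13), led by NEDD4L, a ubiquitin ligase that removes KCNQ and other channels from the membrane (-1.53, adjusted p 1.66e-07), and AKAP9, a scaffold for KCNQ1 channels (0.68, adjusted p 3.95e-05). Of 11 voltage-gated sodium channel genes, 2 were higher and 0 lower in limma, which left 0 lower at an unadjusted p under 0.05 as well, and both, SCN2A (1.14) and SCN9A (0.87), started from a vehicle mean under the bound. Of 25 calcium channel genes, 5 were higher and 1 lower (median -0.09), with CACNA1D, an L-type pore, at 1.49 and the accessory subunits CACNA2D1 and CACNB3 at 0.85 and 0.70. None of 3 HCN pacemaker channel genes passed at an adjusted p under 0.05 in limma. HCN2 (-0.22) and HCN4 (-0.16) were lower at an unadjusted p under 0.05, and HCN3 was at -0.04.

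The line's identity is given by the sample labels, and the marker genes read here do not establish it. Of 7 melanoma markers measured, SOX10, MITF and S100B were above the bound, and the pigment genes PMEL, MLANA, TYR and TYRP1 were at or below it. The first 3 were called higher with vemurafenib (SOX10 0.30, MITF 0.75 and S100B 0.91), and the summed level of the list (log2 of the sum) was 12.42 to 12.44 in vehicle and 12.94 to 13.04 in vemurafenib arrays. Markers of other cell types were also read, because potassium channels are prominent in them. The 5 neuron markers were all above the bound, and their summed level was 9.92 to 9.99 in vehicle and 10.39 to 10.45 in vemurafenib arrays, with SYT1 (1.13) and GAD1 (0.58) called higher and SNAP25 (-0.55) lower. For fibroblasts 4 of 6 were above it (10.06 to 10.26 against 10.60 to 10.76), where DCN (1.46) and LUM (1.13) were called higher and COL1A1, COL1A2, COL3A1 and PDGFRA (-0.24 to 0.01) were not called. For keratinocytes 4 of 6 were above it (9.95 to 10.08 against 10.04 to 10.25), with KRT15 (0.54) alone called, and for muscle 3 of 5 (8.95 to 9.08 against 8.78 to 8.84), with MYH6 (-0.36) and ACTN2 (-0.28) lower. For leukocytes 2 of 5 were above it (10.60 to 10.70 against 9.97 to 10.18), with LYZ (-0.75) and CD14 (-0.32) lower and PTPRC, their defining marker, below the bound. For endothelial cells 1 of 5 was above it (9.43 to 9.53 against 9.14 to 9.18), with KDR (-0.44), PECAM1 (-0.33) and TIE1 (-0.21) lower. Some of these marker changes are limited by background. DCN had a vehicle mean under the bound (5.46), and PECAM1 and ACTN2 were dim in both groups. TIE1, MYH6 and CD14 had a vemurafenib mean under the bound. A summed level follows its brightest genes, so it does not describe each marker. The part of these movements in the channel changes was not tested. As a check of the response, DUSP6, a target gene of the ERK pathway, changed by -4.21.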

How the data were processed

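Per the labels' protocols, 250 ng of total RNA per sample was labelled with biotin and hybridised to 1 Affymetrix array each. The authors deposited log2 levels per probe set, made with RMA and Partek (no version stated) per the submitters' processing notes. In its usual form RMA removes background and applies quantile normalization, which shrinks large folds and removes any difference in total RNA per cell. How probes were summarized, and on which build, is not given in the sources used here. Medians of the 6 arrays ran from 7.69 to 7.73. There is no read depth, and precision is limited by the number of arrays.

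Of 33297 probe sets, 19460 named 1 gene in the platform annotation, 1754 named several and 12083 had no gene there. By Entrez identifier, 19429 matched a current RefSeq gene table and 0 symbols changed. Groups came from the sample labels. limma 3.58.1 (R 4.3.3; lmFit and eBayes, 2-sided, group as the only term) was fitted to all 18417 genes with Benjamini-Hochberg adjustment at 0.05, with no filter on dim genes. The script was tested on simulated data. The series' text pairs dishes of 1 stock and day by letters, but a letter is given for 1 array only, so the pairs could not be assigned.

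The members and lists were chosen with earlier results of these data known. Members called with a change of at least 0.5 were named with all values, other called members with their change, and uncalled members where their family had under 6 genes, their level was among the 5 highest, their probe sets disagreed, or, chosen after their values were seen, where their role or an alternative called for it. From the other lists up to 4 called genes each were named. As alternatives, the replicate number entered as a fixed block or as a random one (statmod 1.5.0), arrays were centred in 2 ways (that over the genes kept was added after seeing the data) or quantile normalized again, and the dimmest 25% or 50% of genes were dropped. Others averaged a gene's probe sets, tested every probe set, used a trend with robust eBayes or array weights, set the threshold to 0.01, or left out each array in turn. Tables and figures were made in Python 3.11.15 with numpy 2.4.6, pandas 2.3.3 and matplotlib 3.10.9. Promoter windows are from RefSeq (GRCh38.p14).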

Additional observations from a re-analysis of the deposited data

How the results depend on the processing

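Of the 29 members called, 21 kept their call in each of the 18 alternatives in which they were tested, 8 lost it in at least 1, and 0 reversed. The 8 were KCND2, KCNG2, KCNIP1, KCNK18, KCNK5, KCNMB3, KCNQ1 and KCNT1, of which KCNG2 and KCNK18 lost it only at the threshold of 0.01. At that threshold 11 members were higher and 10 lower, and 33.6% of all genes were called. Without the dimmest 50% of genes only 7 members were tested, of which 3 were higher and 2 lower, where 64.7% of the 9208 genes were called. Leaving out 1 array at a time gave 12 to 13 higher and 13 to 22 lower, with 39.2% to 45.2% of all genes called. The 22 came without vemurafenib replicate 3, when KCNA7, KCNE5, KCNH2, KCNH4, KCNH6, KCNJ14, KCNK17 and KCNV1 were also called lower (adjusted p 0.0034 to 0.0417). Without vehicle replicate 1, KCNK16 was also called lower (adjusted p 0.0389). In all, 13 of the 56 uncalled members passed in at least 1 alternative. The cause of these differences was not tested.

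With the replicate number as a block, 12 members were higher and 15 lower (41.3% of all genes called), and the calls lost were KCNMB3 (adjusted p 0.0867) and KCNQ1 (0.0691). Deviations of same-numbered arrays from their group means correlated at 0.142, -0.184 and -0.251, so the numbers are not shown to pair the samples. Not every array correlated best with its own number: the highest values were 0.279 (vehicle 2 with vemurafenib 3) and 0.225 (vehicle 3 with vemurafenib 2). The labels assign no such pairs.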
